A study of Homo sapiens with 12 samples.

Results

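The 10 genes described here, *CDX1*, *CDX2*, *VIL1*, *LGR5*, *ASCL2*, *MUC2*, *ATOH1*, *CDH17*, *EPCAM* and *CDH1*, mark the intestinal epithelium and the cell types into which it differentiates. They were chosen by name, and each of the 10 was found among the 58037 genes of the deposited count table. The table belongs to an RNA-seq experiment on HCT116, a human colorectal carcinoma line labelled as epithelial and of wild-type genotype, in which poly-A RNA was collected after 8 h of treatment. The 4 groups, of 3 samples each, received DMSO, Nutlin-3a at 10 μM, NVP-2 at 20 nM, or both compounds at these doses. Nutlin-3a activates p53 by keeping MDM2 from binding it, and NVP-2 inhibits CDK9, the kinase of P-TEFb. The 12 columns of the table hold the same count for every gene, with 0 genes differing, so they were treated as 1 profile of 22720718 counts whose treatment is not known. No effect of the compounds and no spread between replicates can be given, and the intervals below cover counting error only.

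The intestinal epithelium is renewed from stem cells at the base of the crypts, which are kept by Wnt signalling and marked by *LGR5* and *ASCL2*. Their progeny become absorptive cells, which carry a brush border, or secretory cells such as goblet, Paneth, enteroendocrine and tuft cells, a choice in which *ATOH1* drives the secretory fate. The homeobox factors CDX1 and CDX2 set intestinal identity, and the adhesion proteins EPCAM and E-cadherin are common to epithelial cells in general.

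In this profile the general epithelial genes were abundant and the genes of intestinal differentiation were low or without counts. *EPCAM* had 10028 counts and *CDH1* 1484, *CDX2* had 65, *VIL1* and *MUC2* had 4 each, and *CDH17* had 3. *CDX1*, *LGR5*, *ASCL2* and *ATOH1* had 0 counts. RPKM is the count of a gene relative to the total (as CPM, counts per 1000000 counts) and to its length in kilobases, here that of its merged exons. With expression defined as an RPKM of 1 or more, the threshold given in the study's methods, 2 of the 10 genes were expressed, or 20%, against 44.6% of the 19629 protein-coding genes matched. The median RPKM of the 10 genes was 0.0197, beside 0.589 over all protein-coding genes. At most 3 counts, taken here as the floor of detection, were found for 5 of the 10 genes and for 32.6% of protein-coding genes. Together the 10 genes carried 0.0510% of the counts. In RNA from a whole culture, fewer cells of a type and less RNA per cell cannot be told apart. The table holds no normal colon, so whether a gene at 0 was lost in this line is not measured.

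**Figure D1:**
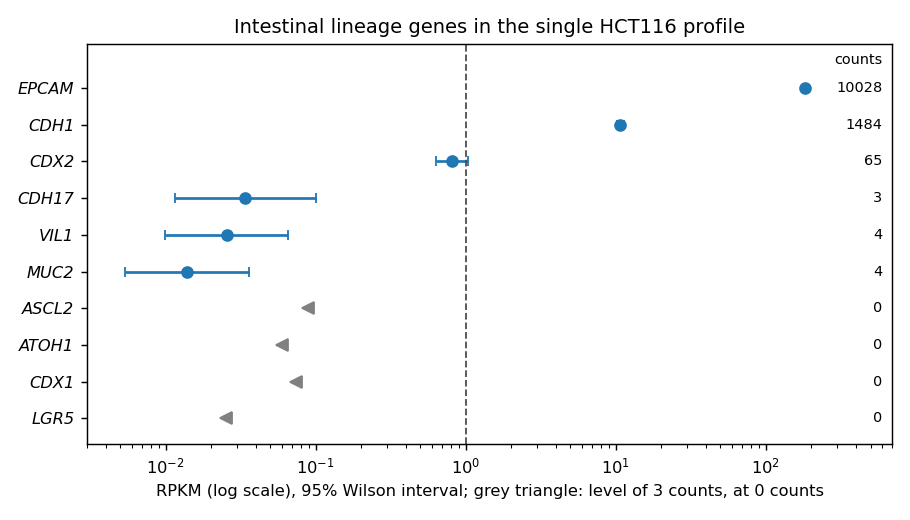
Level of each of the 10 genes in the single HCT116 profile, as RPKM on a log axis, with the 95% Wilson interval (bars) and the counts at the right; the dashed line marks an RPKM of 1. *EPCAM* and *CDH1* lie right of the line, the interval of *CDX2* crosses it, and the grey triangles place the 4 genes without counts at the level that 3 counts would give.

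Ordered by level per length, the genes fell into 3 steps. *EPCAM* had an RPKM of 182 (95% Wilson interval 178 to 185) and was 16.9-fold higher than *CDH1* (exact interval 16.0 to 17.9). *CDH1*, at 10.7 (10.2 to 11.3), was 13.2-fold higher than *CDX2* (10.3 to 17.2). *CDX2*, at 0.813 (0.638 to 1.04), was in turn 23.9-fold higher than *CDH17*, although the few counts of *CDH17* leave an interval from 7.82 to 119. Below this step the order could not be resolved by counting. *CDH17* was at 0.0340 RPKM, *VIL1* at 0.0255 and *MUC2* at 0.0139, and the ratio of *CDH17* to *VIL1* was 1.33 (0.195 to 7.88) and that of *VIL1* to *MUC2* 1.84 (0.342 to 9.87). With the canonical transcript as the length of each gene, *MUC2* came before both, the ratio of *VIL1* to *MUC2* becoming 0.648 and that of *CDH17* to *MUC2* 0.860. For the genes without counts, 3 counts would correspond to an RPKM of 0.0889 for *ASCL2*, 0.0744 for *CDX1*, 0.0597 for *ATOH1* and 0.0253 for *LGR5*.

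**Figure D2:**
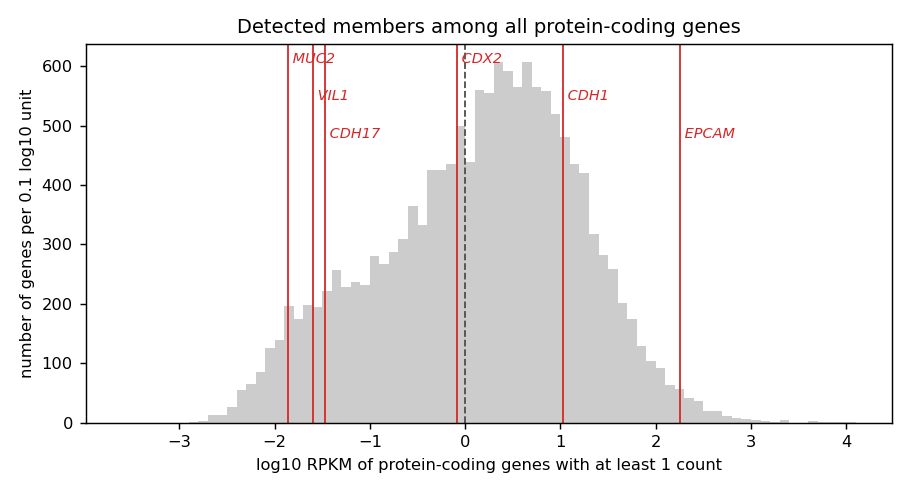
Histogram of log10 RPKM over the protein-coding genes with at least 1 count (vertical axis, genes per bin), with the 6 detected members as red lines and an RPKM of 1 as a dashed line. *MUC2*, *VIL1* and *CDH17* sit in the low tail, *CDX2* lies just left of the dashed line and *EPCAM* is in the far right tail.

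The epithelial label of the line was matched by its adhesion genes. *EPCAM*, which encodes a cell surface adhesion molecule of simple epithelia, ranked 188 of the 19629 protein-coding genes by RPKM, above 99.0% of them. *CDH1*, which encodes E-cadherin, the cadherin of adherens junctions, ranked 3016, above 84.6%. In a list of 20 genes of epithelial adhesion and its control, 18 had an RPKM of at least 1, or 90%, against 44.6% of all protein-coding genes. The median RPKM of the list was 10.1, beside 0.589 over all protein-coding genes. The highest after *EPCAM* were *CTNNA1*, encoding the α-catenin that links cadherins to actin, at 54.5, *CLDN7*, a claudin of tight junctions, at 53.6, and *JUP*, encoding plakoglobin, at 41.2. This order holds for merged exons, since with the canonical transcript *CTNNB1*, encoding β-catenin, went from 32.1 to 103 and passed *CLDN7* (86.7) and *JUP* (58.2). The 2 genes under the threshold were *OCLN*, encoding occludin, at 0.469, and *CDH17*.

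Mesenchymal genes were low beside them. Of 11 genes on that list, 2 reached an RPKM of 1, or 18.2%, against 44.6% of all protein-coding genes. The 2 were *SNAI1*, a repressor of *CDH1*, at 1.68 (65 counts) and *FN1*, encoding fibronectin, at 1.38. The intermediate filament gene *VIM* had 15 counts and an RPKM of 0.128. *CDH2*, encoding N-cadherin, *CDH11*, *ZEB2* and *TWIST2* had 0 counts and *SNAI2* had 2. *CDH1* was 699-fold above the level that 3 counts would give for *CDH2* per length of merged exons, and 413-fold per length of the canonical transcript. Markers of other cell types were also low. None of 6 fibroblast, 6 leukocyte and 4 endothelial genes reached the threshold, beside 44.6% of all protein-coding genes. The summed counts of these lists were 224, 40 and 52. *COL1A1* accounted for 199 of the fibroblast counts, at an RPKM of 0.972, whereas *COL1A2*, *DCN* and *LUM* had 0. *CD14* held 27 of the leukocyte counts, at an RPKM of 0.722 (0.496 to 1.05), near that of *CDX2*, and *PTPRC* and *MS4A1* had 0. Of the endothelial genes, *KDR* had 32 counts and *PECAM1* 17, while *VWF* and *CDH5* had 2 and 1.

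*CDX1* and *CDX2* are homeobox paralogues that activate genes of the intestinal epithelium. Here *CDX1* had 0 counts and *CDX2* 65, or 2.86 CPM (95% Wilson interval 2.24 to 3.65). Per length, *CDX2* was 10.9-fold above the level that 3 counts would give for *CDX1*. *CDX2* ranked 9201 of the protein-coding genes by RPKM, above 53.1% of them, and its interval includes the threshold of 1. Against 44.6% of all protein-coding genes, 3 of 16 transcription factors of the intestinal and endodermal lineage, or 18.8%, reached that threshold. They were *KLF5* (RPKM 6.01), a factor of proliferating crypt cells, *HES1* (5.84), a Notch target that opposes the secretory fate, and *ELF3* (2.80), an epithelial ETS factor, and *CDX2* followed them. *HNF4A*, encoding a nuclear receptor that controls enterocyte genes, had 1 count, and *CDX1*, *GATA4*, *FOXA2* and *ISX* had 0. The median RPKM of the list was 0.139.

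RefSeq promoter sequences (GRCh38.p14, from 250 bases before to 50 bases after the gene start) were at hand for 3 of the 10 genes, *CDX2*, *ATOH1* and *MUC2*. They are shown because these genes stand for 3 situations, an intestinal regulator near the threshold, a secretory regulator without counts and a goblet cell product with few counts. *CDX2* is read at chr13:27969266-27969565 on the minus strand, *ATOH1* at chr4:93828503-93828802 and *MUC2* at chr11:1074624-1074923, both on the plus strand. Capitals mark matches, on either strand, to TTTATG (a core bound by CDX factors), CTTTGA (a core bound by TCF/LEF factors, the DNA-binding partners of β-catenin), TATAAA (the letters of a TATA box) and GGGCGG (a GC box). TTTATG and the reverse complement of TATAAA differ only in their last letter.
CDX2: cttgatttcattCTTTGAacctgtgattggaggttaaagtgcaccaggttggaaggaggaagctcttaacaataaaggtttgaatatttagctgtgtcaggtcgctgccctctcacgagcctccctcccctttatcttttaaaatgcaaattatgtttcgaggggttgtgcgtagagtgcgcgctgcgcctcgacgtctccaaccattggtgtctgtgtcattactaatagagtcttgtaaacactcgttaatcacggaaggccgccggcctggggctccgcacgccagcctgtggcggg
ATOH1: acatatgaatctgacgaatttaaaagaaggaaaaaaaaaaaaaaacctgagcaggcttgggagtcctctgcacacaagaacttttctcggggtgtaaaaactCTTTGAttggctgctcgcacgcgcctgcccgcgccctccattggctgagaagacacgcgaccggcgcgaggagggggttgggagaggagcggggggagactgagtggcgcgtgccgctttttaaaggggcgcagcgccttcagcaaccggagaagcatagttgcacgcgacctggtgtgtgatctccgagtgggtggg
MUC2: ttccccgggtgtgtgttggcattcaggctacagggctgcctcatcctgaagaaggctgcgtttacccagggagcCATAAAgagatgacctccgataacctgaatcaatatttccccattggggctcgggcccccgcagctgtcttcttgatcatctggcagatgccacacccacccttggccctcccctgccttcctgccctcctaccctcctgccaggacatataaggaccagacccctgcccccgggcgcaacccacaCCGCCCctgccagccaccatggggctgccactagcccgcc

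*CDX2* and *ATOH1* each held 1 CTTTGA, 238 and 148 bases before the gene start, a word found in 10.8% of 11257 promoters of protein-coding genes. *MUC2* held TTTATG on the minus strand, as CATAAA from 176 bases before the start, a word found in 7.68% of promoters, and a GC box from base 11 of the gene, as CCGCCC, found in 59.8%. No exact match to TATAAA, which 10.4% of promoters hold, was present in the 3 windows. Only exact words were marked, so TATAAG in the *MUC2* window, which differs from TATAAA in its last letter, is not in capitals. Such matches describe letters and do not show binding. The ratio of observed to expected CpG dinucleotides was 0.844 for *CDX2* (16 CpG in 300 bases), 0.971 for *ATOH1* (22 CpG) and 0.334 for *MUC2* (9 CpG), beside a median of 0.777. These values were above those of 61.2%, 83.2% and 21.8% of promoters, respectively. Over the 11257 genes, the share with an RPKM of at least 1 was 7.35% in the lowest of 4 equal bins of the CpG ratio, 42.3% and 63.6% in the middle bins and 71.1% in the highest. *MUC2* lay in the lowest bin, *CDX2* in the bin below the highest, and *ATOH1*, with 0 counts, in the highest bin.

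**Figure D3:**
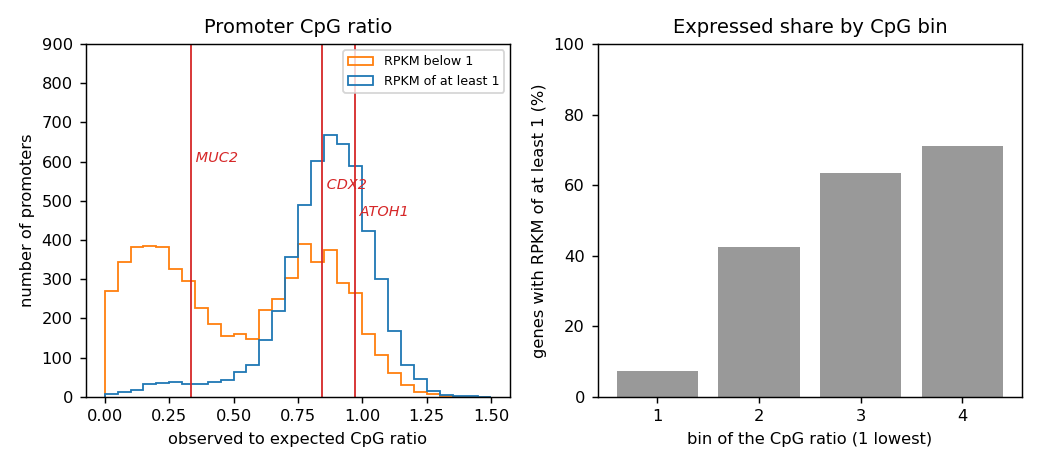
Left, histogram of the observed to expected CpG ratio of 11257 promoters, for genes with an RPKM of at least 1 (blue) and below 1 (orange), with 3 members as red lines; right, the percentage of genes with an RPKM of at least 1 in each of 4 bins of that ratio. *MUC2*, at 0.334, lies among the CpG-poor promoters, where 7.35% of genes in the lowest bin were expressed, and *CDX2* (0.844) and *ATOH1* (0.971) lie among the CpG-rich ones.

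The stem cell genes were split. *LGR5*, a receptor for R-spondins that strengthens Wnt signalling, and *ASCL2*, a transcription factor of crypt stem cells, had 0 counts, as did *OLFM4* and *SMOC2*, which are further markers of these cells. Of the 15 genes on the list, 7 nevertheless reached the threshold, or 46.7%, close to the 44.6% over all protein-coding genes. The highest was *CD44*, encoding a hyaluronan receptor, with an RPKM of 78.9 and 17921 counts. It was followed by *SOX9*, a transcription factor of the crypt base, at 22.3, *RNF43*, a ubiquitin ligase that removes Wnt receptors, at 8.19, and *MSI1*, an RNA-binding protein, at 6.31. *AXIN2*, a target of β-catenin, had 69 counts and an RPKM of 0.584.

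The member *VIL1* encodes the actin-bundling protein villin of microvilli, and *CDH17* encodes LI-cadherin, an adhesion protein of intestinal cells. *VIL1* had 4 counts, or 0.176 CPM (0.0685 to 0.453), and *CDH17* had 3, or 0.132 CPM (0.0449 to 0.388). Most products of mature absorptive cells were at or under the floor of 3 counts. Of 17 such genes, 12 had at most 3 counts, a level found for 32.6% of all protein-coding genes. Of the 17, 11 had 0 counts. Among them were *FABP1* and *FABP2*, which encode fatty acid-binding proteins, and *ALPI* and *SI*, which encode intestinal alkaline phosphatase and sucrase-isomaltase. The others were *SLC26A3*, *CA1*, *CA4*, *AQP8*, *MS4A12*, *GUCA2B* and *CEACAM7*. The list mixes genes of enterocytes and of colonocytes. The median RPKM of this list was therefore 0. The 1 gene above the threshold was *CA2*, encoding a carbonic anhydrase that many tissues share, with an RPKM of 18.6. *KRT20*, a keratin of differentiated colonocytes, had 37 counts and an RPKM of 0.851 (0.618 to 1.17), *LCT* was at 0.562 and *DPP4* at 0.198. The place of *DPP4* depends on the length used. With the canonical transcript it was at 0.801, *LCT* at 0.589 and *KRT20* at 0.903.

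Structural genes of the brush border ranged widely. In that list 5 of 10 genes reached the threshold, or 50%, near the 44.6% over all protein-coding genes. *EZR*, encoding ezrin, which ties actin to the membrane, had 44922 counts and an RPKM of 602, ranking 40 of all protein-coding genes. *PLS1*, *ESPN* and *EPS8*, which encode other actin-binding proteins of microvilli, were at 11.4, 5.97 and 3.73. Those tied to the intermicrovillar links of enterocytes, *CDHR5*, *CDHR2* and *MYO7B*, had 0, 2 and 1 counts, while *USH1C*, encoding their scaffold harmonin, had 142 and an RPKM of 1.27. The levels in this list thus ran from 0 counts to one of the highest of the profile, with *VIL1* near the low end.

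**Figure D4:**
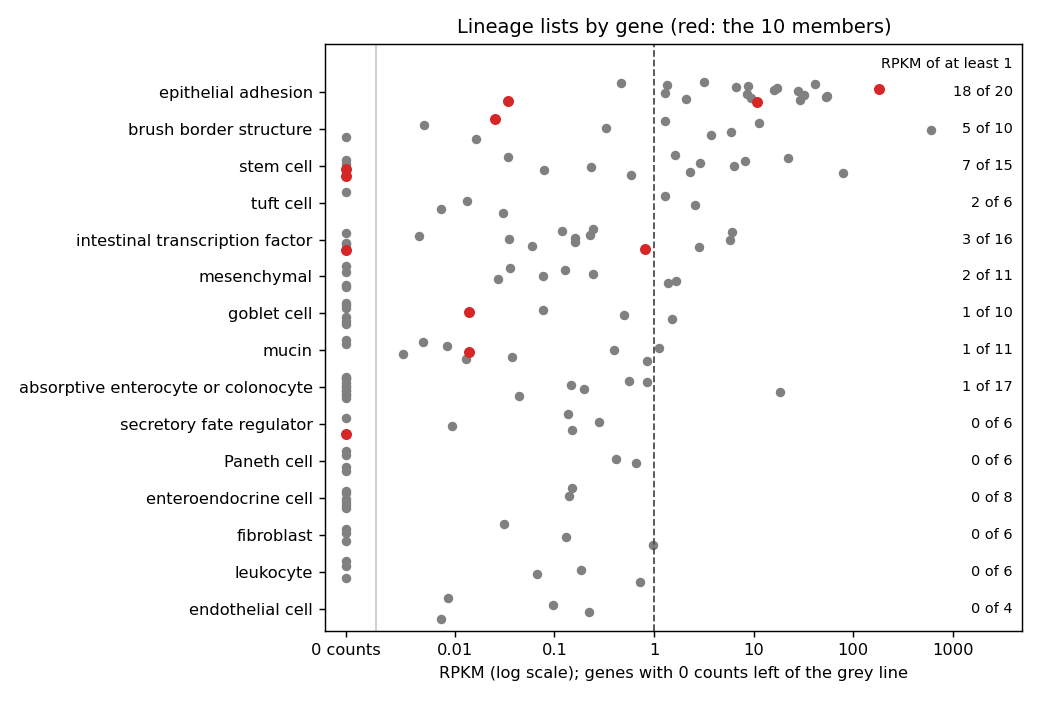
RPKM of each gene (points, log axis) in 15 lists of lineage and cell type genes, with the members in red, genes without counts left of the grey line, and the number with an RPKM of at least 1 at the right. Epithelial adhesion stands at 18 of 20 and stem cell genes at 7 of 15, with *LGR5* and *ASCL2* at 0 counts. Brush border structure, which holds *VIL1*, stands at 5 of 10, and the absorptive enterocyte or colonocyte list and the secretory lists at 2 or fewer. Over all protein-coding genes the share was 44.6%.

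Genes of the secretory lineage were low. *ATOH1*, which encodes the factor that commits progenitors to this lineage, had 0 counts. None of 6 regulators of secretory fate reached an RPKM of 1, a level that 44.6% of all protein-coding genes reached. *GFI1* was at 0.281 (36 counts), *DLL1* at 0.150 (13 counts) and *SPDEF*, a goblet cell factor, at 0.138 (6 counts), while *NEUROG3*, which starts the endocrine fate, had 0 and *DLL4* had 1. *MUC2*, the main gel-forming mucin of goblet cells, had 4 counts, or 0.176 CPM (0.0685 to 0.453). Of 10 goblet cell genes, 7 had at most 3 counts, beside 32.6% of all protein-coding genes. Among the 7 were *TFF3*, *CLCA1*, *ZG16* and *SPINK4* with 0. *FCGBP*, encoding a mucus protein, was the 1 goblet cell gene above the threshold, with 441 counts and an RPKM of 1.5.

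Genes of other secretory cell types were mostly near the floor of 3 counts too, at or under which lay 32.6% of all protein-coding genes. Among 6 Paneth cell genes, the defensins *DEFA5* and *DEFA6*, *PLA2G2A* and *REG3A* had 0 counts, and *LYZ*, encoding lysozyme, had 26 (RPKM 0.664) and *MMP7* 22 (0.417). Among 8 enteroendocrine genes, 6 had 0 counts, including the granin genes *CHGA* and *CHGB*, while *SYP* had 24 counts and *NEUROD1* 26. In the tuft cell list, *POU2F3*, the factor that specifies these cells, had 2 counts, *GFI1B* 1 and the channel gene *TRPM5* 0. *IL17RB*, encoding a cytokine receptor, and *PTGS1*, encoding cyclooxygenase-1, nevertheless reached RPKM values of 2.59 and 1.28.

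Mucins beyond *MUC2* were compared because its neighbours on chromosome 11 are also gel-forming mucins. *MUC6*, 38156 bp to one side of *MUC2*, and *MUC5AC*, 47441 bp to the other, had 0 counts each, and *MUC5B* had 2. Of 11 mucins, *MUC3A*, a membrane mucin, was the 1 above the threshold, at 1.12 (291 counts). This was 9.09% of the list, against 44.6% of all protein-coding genes. *MUC1* was at 0.843 and *MUC20* at 0.399, and the intestinal membrane mucins *MUC13* and *MUC17* had 3 counts and 1. Mucin genes hold long repeats, and how reads were assigned within them was not examined. The length matters as well, since the canonical transcript of *MUC2* in the annotation is 4209 nt and its merged exons are 12667 nt.

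At the other loci the nearest protein-coding genes were not always as low as the member. *CDH1* (chr16:68737292-68835537, plus strand, 16 exons in the canonical transcript) follows *CDH3*, encoding P-cadherin, at a distance of 9823 bp on the same strand. *CDH3* had 4193 counts and was 2.69-fold higher than *CDH1* per length (2.53 to 2.85). *EPCAM* lies at chr2:47345158-47387601 on the plus strand and has 9 exons. *VIL1* (chr2:218419121-218453295, plus strand, 20 exons), with 4 counts, lies between *CTDSP1*, 13179 bp away with 1259, and *CNOT9*, 115284 bp away with 1395. It overlaps *USP37* on the opposite strand, with 632 counts. The authors counted reads by strand.

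*CDX1* (chr5:150166778-150184558, plus strand, 3 exons) lies between *PDGFRB* and *SLC6A7*, with 5 counts and 0, and *CDX2* (chr13:27960918-27969315, minus strand, 3 exons) between *PDX1* and *URAD*, with 7 and 0. *ASCL2* (chr11:2268498-2270588, minus strand) has *TH* and *C11orf21* beside it, both without counts. *LGR5* (chr12:71439798-71586310, plus strand, 18 exons) overlaps *TSPAN8* on the opposite strand, which had 5 counts, and lies 23288 bp from *ZFC3H1*, which had 264 counts and an RPKM of 1.23. *ATOH1* (chr4:93828753-93830964, plus strand) has a single exon, and *SMARCAD1*, 376646 bp away on the same strand, had 220 counts and an RPKM of 1.53. *CDH17*, on the minus strand, had 3 counts. On one side *PDP1*, 201093 bp away on the opposite strand, had 29633, and on the other *GEM*, 31949 bp away on the same strand, had 91. These are values at single loci and no test was made of them.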

How the data were processed

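The authors deposited raw counts per gene, as whole numbers without normalization. Per their methods, reads were mapped to hg38 with ContextMap using BWA and counted by strand with featureCounts and Gencode version 25. Each of the 12 columns was assigned to the sample whose label it carries. The columns were identical for every gene, so the column named for the first DMSO replicate was used as 1 profile of unknown treatment, and the planned edgeR test of the compounds was not run. The comparison of columns was checked by adding reads to a copy.

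Identifiers were matched without their suffix to GENCODE v44 (hg38), and 56948 of 58037 matched; 45 second copies of pseudoautosomal genes were added to the first. CPM is relative to all 22720718 counts, and RPKM divides it by the merged exon length in kilobases. Intervals are 95% Wilson intervals for levels and exact conditional binomial intervals for ratios, both from scipy 1.17.1 in Python 3.11.15. They cover counting error only. A level of 0 is read against 3 counts, or 0.132 CPM, and ratios to that level carry no interval.

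The members and lists were chosen with earlier results of these data known. All 10 members are named, and from each list up to 4 genes with the highest RPKM and those with at most 3 counts, or examples of these in list order where there were more than 5. Other genes were named after their values were seen, among them *AXIN2*, *OCLN*, *USH1C* and those beside the members on the chromosome. The values of some genes on these lists or beside the members are not reported here. Motifs were chosen after the sequences were seen.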

Additional observations from a re-analysis of the deposited data

How the results depend on the processing

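No paired analysis was possible because the table gives 1 distinct sample. For the same reason the alternatives to the edgeR test (DESeq2, no filter, leaving out each replicate, and the replicate number as a block) were not run. The RPKM of *EPCAM* was 285 with the length of the canonical transcript, 201 relative to protein-coding counts and 203 without mitochondrial genes, and that of *CDH1* was 13.6, 11.9 and 12. *MUC2* was at 0.0418 with the canonical length. The levels of the other 7 members stayed within their counting intervals or at 0 under these 3 alternatives, *CDX2* lying between 0.830 and 0.908. Of the 10 members, 3 had at least 1 CPM and 3 at least 10 counts (58.0% and 62.8% of protein-coding genes), the third being *CDX2*, and 2 passed with the canonical length (49.1%). Counting genes with at least 1 CPM gave 6 intestinal transcription factors, 4 absorptive, 1 secretory fate, 2 goblet, 1 Paneth, 2 enteroendocrine, 3 mucin, 1 fibroblast, 1 leukocyte and 1 endothelial gene. Counting those with at least 10 counts gave 8, 4, 2, 2, 2, 2, 3, 2, 1 and 2 in the same order, and 4 mesenchymal genes. With the canonical length, 3 mucins and 1 fibroblast gene passed. The other list counts were within 1.5 times of those given. Levels under 3 counts cannot be told from 0 at this depth.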

Other observations

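Paralogues of the members were examined after the levels of the members were seen, as a list of 10 genes. *LGR4*, the R-spondin receptor that is expressed more widely than *LGR5*, had 130 counts and an RPKM of 0.900 (95% Wilson interval 0.758 to 1.07). This was 35.6-fold above the level that 3 counts would give for *LGR5*, whereas *LGR6* had 0 counts. Of the genes related to villin, *AVIL*, encoding advillin, had 146 counts and was 42.5-fold higher than *VIL1* per length of merged exons (16.2 to 158) and 76.9-fold higher per length of the canonical transcript, and *VILL* had 36. *CDX4* and *CDH16* had 0 counts, *ATOH7* had 3 and *ATOH8* 1. Only *AVIL*, at 1.09 (0.923 to 1.28), had an RPKM of at least 1, beside 44.6% of all protein-coding genes. Its interval includes 1, as does that of *LGR4*.

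A list of 10 genes known from regenerating or foetal intestinal epithelium was chosen in the same way. Of these, 7 reached an RPKM of 1, beside 44.6% of all protein-coding genes. The median of the list was 7.56, beside 0.589 over all protein-coding genes, in the profile in which *LGR5* had 0 counts. *S100A6*, encoding a calcium-binding protein, was at 711, *ANXA1* and *ANXA3*, encoding annexins, at 71.0 and 64.0, and *CLU*, encoding clusterin, at 26.2. *CCN1* was at 7.69 and *PLAUR* at 4.41, while *CCN2* and *IL1RN* were at 0.339 and 0.0118. Many of these genes are also expressed outside the intestine.

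*LCT*, encoding lactase of small intestinal enterocytes, had 84 counts although *SI*, *FABP2* and *ALPI* had 0. It lies 2441 bp downstream of *MCM6* on the same strand, and *MCM6*, a replication helicase subunit, had 6434 counts. Whether reads of *MCM6* transcripts contribute to the counts of *LCT* was not tested.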
